A study of Mus musculus with 2 samples.

Results

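The 8 genes described here, F3, F7, F10, F13a1, Plau, Plaur, Serpine2 and Serpinb2, belong to blood coagulation or to the plasminogen system, the protease cascade that dissolves clots and clears pericellular matrix. They were taken by symbol, each symbol matched 1 of the 32285 features counted in either library, and they were picked with earlier results of these libraries known, so that their levels are a description. Single-cell transcriptomes came from CD45-positive cells, bead-sorted from subcutaneous CT26 tumours. CT26 is a mouse colorectal carcinoma line that grows in BALB/c mice. In the library labelled Arg, BALB/c mice aged 5 weeks ate a diet without arginine, and in the library labelled Control they ate a normal diet of the same total calories. The label Arg names no diet, and its arm was taken from the study's design text. In both groups the diet began 1 week before the tumour cells were injected, and tumours were taken on day 20. No allele, transgene or drug is named for either group, and no source used here gives the number of mice per library.

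Each diet had 1 library, so no difference below has a replicate check and no test was run. The libraries held 155927693 UMIs (unique molecular identifiers, each standing for 1 captured RNA molecule) in 14540 barcodes for Arg and 191505551 UMIs in 14343 barcodes for Control. After filtering, 12991 Arg and 12800 Control cells were left, with medians of 8294 and 10021 UMIs. Of all barcodes, 44 occurred in both libraries, and 40 of these were among the cells kept. Leaving them out changed no count of genes called in any of the classes below.

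Tissue factor, encoded by F3, starts coagulation when it binds factor VII from the gene F7. The pair activates factor X from F10, which turns prothrombin into thrombin, and factor XIII, whose A subunit is encoded by F13a1, then cross-links fibrin. On the dissolving side, urokinase from Plau bound to its receptor from Plaur turns plasminogen into plasmin, and the serpins encoded by Serpine2 (protease nexin-1) and Serpinb2 (plasminogen activator inhibitor 2) inhibit urokinase. Most circulating clotting factors come from the liver, and monocytes and macrophages are the best known source of tissue factor, factor XIII A and urokinase receptor among blood-derived cells.

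On the GRCm38 build, F7 (chr8:13026034-13035809) and F10 (chr8:13037308-13056676) lie next to each other on the plus strand, 1498 bases apart with no annotated gene between them. F3 lies at chr3:121723537-121735048, Plau at chr14:20836660-20843385 and Plaur at chr7:24462484-24475968, all on the plus strand. F13a1 (chr13:36867178-37050244) and Serpine2 (chr1:79794197-79861180) are on the minus strand, and Serpinb2 (chr1:107511423-107535478) is on the plus strand. Serpinb2 overlaps Serpinb10 on the same strand, and 2 antisense genes, Gm49144 and Gm30489, overlap F13a1. Reads of Serpinb2 may have been shared with Serpinb10, since no source used here gives the counting mode. For the antisense genes it would also depend on how strands were counted, which was not checked.

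The start regions of 5 of the genes are shown because F7 and F10 are neighbours with related patterns across cell classes, and because F3, Plaur and Serpinb2 share a motif. Each runs from 250 bases before the annotated start to 50 bases after it, from RefSeq on GRCm38.p6. Capitals mark the AP-1 motif (TGANTCA), the PU.1 motif (GAGGAA) and the TATA box (TATAAA), each searched on both strands.
F7 (chr8:13025784-13026083, plus strand): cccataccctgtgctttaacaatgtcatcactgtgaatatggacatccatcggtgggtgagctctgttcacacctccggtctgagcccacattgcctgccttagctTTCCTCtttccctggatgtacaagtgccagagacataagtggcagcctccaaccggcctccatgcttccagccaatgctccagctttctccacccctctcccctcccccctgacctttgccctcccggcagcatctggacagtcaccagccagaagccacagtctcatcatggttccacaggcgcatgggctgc
F10 (chr8:13037058-13037357, plus strand): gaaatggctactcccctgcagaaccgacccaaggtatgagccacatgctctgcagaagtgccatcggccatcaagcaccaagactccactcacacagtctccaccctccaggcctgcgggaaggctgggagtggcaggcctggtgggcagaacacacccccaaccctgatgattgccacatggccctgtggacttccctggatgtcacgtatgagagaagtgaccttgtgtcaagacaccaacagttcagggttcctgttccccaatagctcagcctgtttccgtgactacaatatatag
F3 (chr3:121723287-121723586, plus strand): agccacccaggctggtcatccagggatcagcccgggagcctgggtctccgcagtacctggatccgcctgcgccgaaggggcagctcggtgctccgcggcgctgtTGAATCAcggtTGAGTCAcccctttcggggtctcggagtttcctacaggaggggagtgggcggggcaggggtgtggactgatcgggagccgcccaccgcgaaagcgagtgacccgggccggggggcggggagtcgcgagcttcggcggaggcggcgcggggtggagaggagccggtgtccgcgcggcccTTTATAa
Plaur (chr7:24462233-24462532, plus strand): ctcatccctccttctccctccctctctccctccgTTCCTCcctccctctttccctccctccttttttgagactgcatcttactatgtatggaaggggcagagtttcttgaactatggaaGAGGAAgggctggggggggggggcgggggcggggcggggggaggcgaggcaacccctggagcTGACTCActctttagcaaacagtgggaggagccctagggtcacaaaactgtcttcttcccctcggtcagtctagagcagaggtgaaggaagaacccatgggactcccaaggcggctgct
Serpinb2 (chr1:107511173-107511472, plus strand): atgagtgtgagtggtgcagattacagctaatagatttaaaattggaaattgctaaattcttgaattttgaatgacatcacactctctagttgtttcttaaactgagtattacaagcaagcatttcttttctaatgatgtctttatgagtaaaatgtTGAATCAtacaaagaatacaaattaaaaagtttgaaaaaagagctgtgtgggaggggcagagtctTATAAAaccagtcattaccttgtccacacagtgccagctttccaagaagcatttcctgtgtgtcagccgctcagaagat

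A promoter entry was found for 7 of the 8 genes, and Plau was not among them. The AP-1 motif occurred in the windows of F3 (positions -146 and -135, counted from the start as 0), Plaur (-69) and Serpinb2 (-94), and in 7.81% of all 32851 mouse promoter windows. The PU.1 motif occurred in F7 (-144), Plaur (-216 and -131) and F13a1, and in 28.3% of all windows. A TATA box stood at -29 in Serpinb2 and at 43 in F3, and occurred in 13.6% of all windows. In the F10 window none of these 3 motifs was found, and of the 5 others searched it held only the hypoxia element ACGTG, which 19.6% of all windows held. The Sp1 motif GGGCGG (35.7% of all windows) was in F3, Plaur and Serpine2, and the C/EBP motif TTGCNNAA (10.8%) in Plaur and Serpinb2. The NF-kB motif (1.63%) and the cyclic AMP element TGACGTCA (1.79%) were in none of the 7. These matches describe letters and not bound sites.

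Cells were grouped into classes from marker genes, with the 8 genes and the other coagulation genes kept out of the clustering. The monocyte class (Ly6c2, Vcan and others) held 1140 Arg and 724 Control cells, and the macrophage class (C1qa, Apoe, Mrc1 and others) held 3998 and 4815. A pair of further clusters carried all 8 macrophage markers above 10 counts per 1000000 UMIs (CPM). Their 10 leading genes held no macrophage marker, but Pf4 of the erythroid and platelet set (cluster 5) or Mmp9 of the neutrophil set (cluster 7). By the naming rule they are therefore given by number. Macrophage markers summed to 9744 CPM in Arg and 10078 in Control in cluster 5, and to 3663 and 2264 in cluster 7. In the macrophage class they summed to 8186 and 14084. Cluster 5, led by Mmp13, Mmp12, Fabp5, Atp6v0d2 and Arg1, held 1251 and 661 cells. Cluster 7, led by Cxcl3, Mmp8, Mmp9, Inhba and Pgf, held 1174 and 488 cells.

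T cells numbered 1760 and 2070. No cluster took its name from the tumour epithelial markers, and cells that passed per-cell gates for these markers numbered 0 in both libraries. A cell passed a gate only if no other marker set had as many markers found in it. Those sets included leading genes of the cluster described next, so the 0 cannot show that tumour cells were absent. A further cluster, low in leukocyte RNA, was led by Tm4sf1, Rhox5, Lgals7, Rpl39l and Ccn1. Its 462 Arg and 1434 Control cells held medians of 37837 and 34095 UMIs. It summed to only 7.06 and 17.3 CPM over the 8 tumour epithelial markers, with 1 of 8 over 10 CPM and Cldn4 at 0. Most of that sum was Krt18, at 6.89 in Arg and 15.7 in Control. B lineage cells summed to 113 and 154 over the same markers, of which Epcam alone made up 104 and 123. Fibroblast markers summed to 818 and 1046 in the further cluster, with 6 of 8 over 10 CPM. The leukocyte gene Ptprc (CD45) was at 37.0 and 18.9 in it, against 1214 and 978 in monocytes. This further cluster is called the Tm4sf1 Rhox5 cluster. Fibroblasts numbered 35 Arg and 88 Control cells, below the 50 cells per library required for a comparison, so only their levels are given.

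Levels are in CPM: the UMIs of a gene were summed over a class and scaled to a class total of 1000000 UMIs. Brackets hold 95% intervals that cover counting error only, and are narrower than they should be for genes whose UMIs come from few cells. A gene counted as measured in a class where its mean level over both libraries was at least 10 CPM. It counted as higher or lower where log2 of Arg over Control, after adding 5 CPM to each level, passed 1.5-fold, and folds in the text are plain ratios of levels. Because this is a 3′ assay that counts molecules, levels are not scaled by transcript length and are not ranked between genes.

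**Figure D1:**
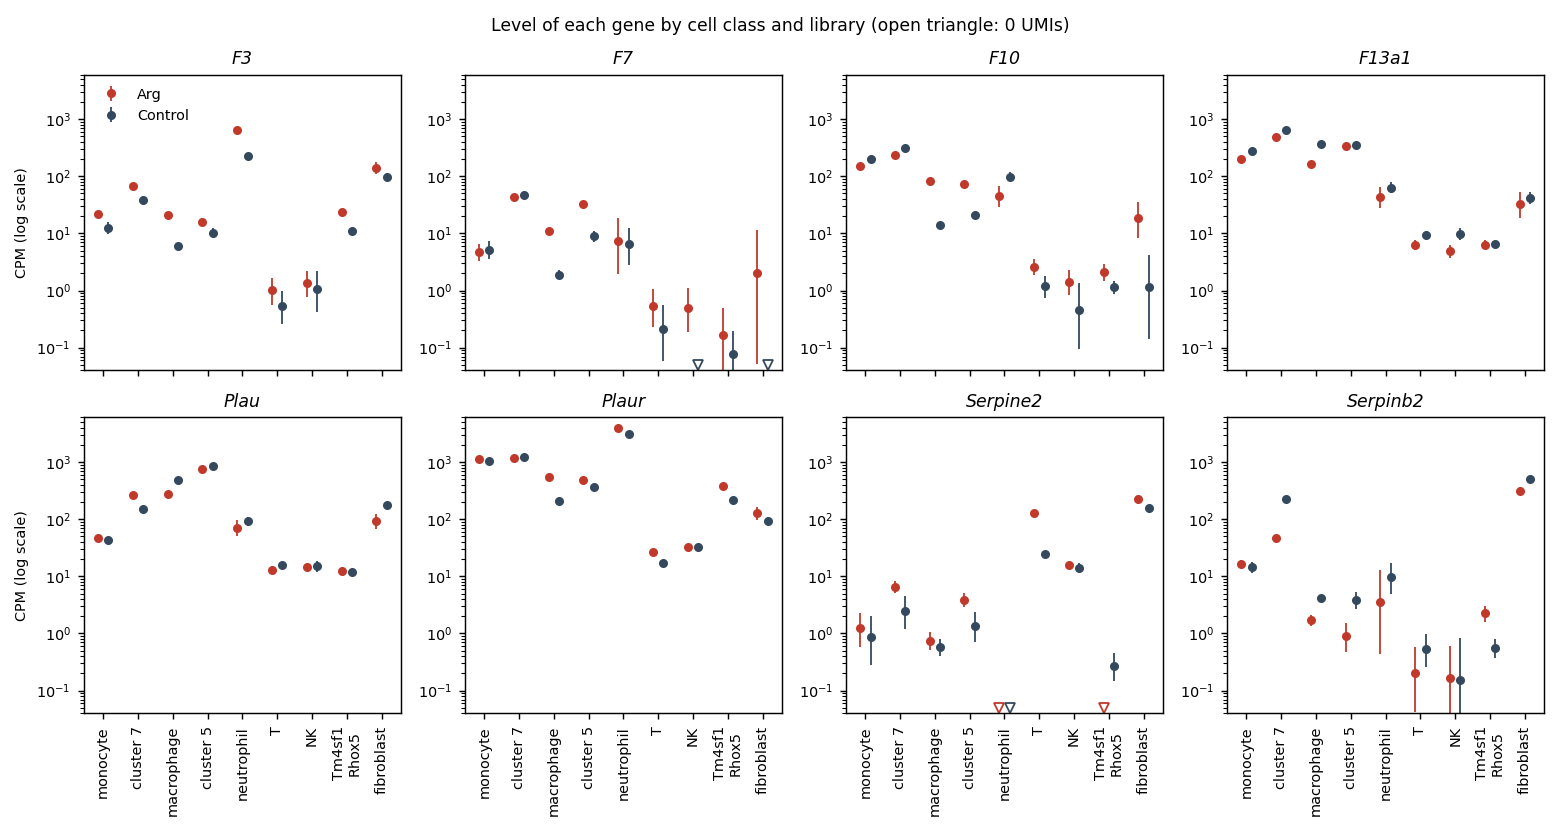
Level of each of the 8 genes in 9 cell classes, in CPM on a log scale, with Arg left of Control in each pair and bars for the 95% counting interval; open triangles mark 0 UMIs. F10 was highest in cluster 7 (232 in Arg and 309.6 in Control), F3 and Plaur in neutrophils, and Serpine2 in fibroblasts and T cells.

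In the macrophage class, 5 of the 8 genes were measured. F3, F10 and Plaur were higher in Arg, and F13a1 and Plau were lower. Of all 7747 genes measured there, 7.22% were higher and 4.75% lower, the largest shares among the classes compared. In monocytes 6 genes were measured and only F3 was higher, against 2.5% of all genes higher and 1.53% lower. In T cells 3 genes were measured and Serpine2 was higher (2.83% of all genes higher, 2.27% lower). In the Tm4sf1 Rhox5 cluster 3 were measured, and F3 and Plaur were higher (1.43% and 2.01%).

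In cluster 5, F7 and F10 were higher among 6 measured genes (4.49% of all genes higher, 1.82% lower). In cluster 7, F3 and Plau were higher and Serpinb2 was lower among 7 measured genes (3.86% and 2.08%). Counting clusters 5 and 7 as macrophages gave 7 measured genes, 4 higher and 2 lower, with 6.24% and 4.34% of all genes. A gene passed the filter on low levels if it was high in either library: in macrophages F3 averaged over 10 CPM with only 5.90 in Control, so the counts describe the measured genes and not all 8.

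**Figure D2:**
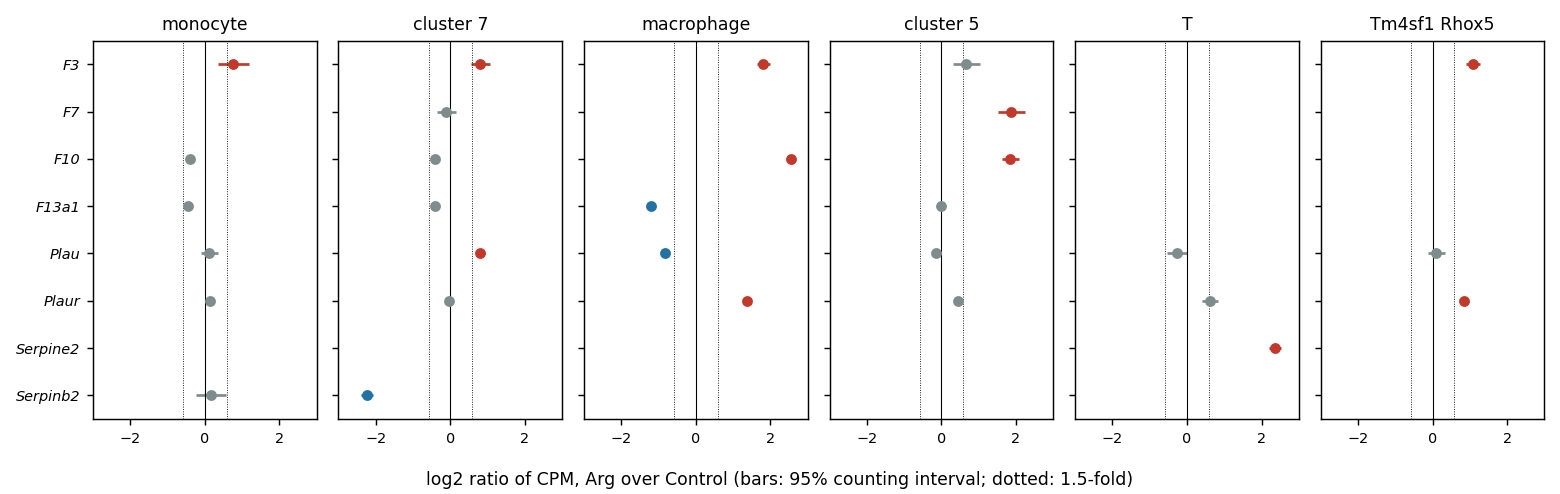
Plain log2 ratio of Arg over Control for each measured gene in 6 cell classes, with 95% counting intervals and dotted lines at 1.5-fold; red points were called higher, blue lower and grey neither. F10 lies right of 0 in macrophages and cluster 5 and left of 0 in monocytes and cluster 7.

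The initiator F3 was higher in Arg in every class where it was called. Macrophages had 20.7 CPM in Arg and 5.90 in Control, a 3.51-fold ratio [3.11 to 3.97]. Weighted to the same mix of macrophage clusters in both libraries, the levels were 16.5 in Arg and 9.22 in Control, a 1.79-fold ratio whose log2 value of 0.60 stayed just past the threshold. Monocytes had 21.6 in Arg and 12.7 in Control, a ratio of 1.70 [1.29 to 2.27] whose log2 value of 0.59 likewise lies just past the threshold of 0.58. The monocyte call was lost with TMM scaling (0.57) and with per-cell marker gates (0.39). Cluster 7 had 67.8 in Arg and 38.9 in Control (1.75-fold), a call that was lost with doublets kept (log2 0.40). The ratio in cluster 5 pointed the same way, with 16.1 against 10.1, without reaching the threshold.

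In the Tm4sf1 Rhox5 cluster F3 stood at 23.5 in Arg and 11 in Control, a 2.14-fold ratio [1.88 to 2.43]. Neutrophils had the highest F3 level of the classes, 634 in Arg and 226 in Control, with F3 found in 45.3% and 19.9% of cells after each cell was thinned to 2000 UMIs (46.1% and 17.95% of all cells unthinned). Neutrophils were also the shallowest class, with medians of 2202 and 2166.5 UMIs, and numbered 228 and 440 cells. The neutrophil markers summed to 24.0 CPM in Arg and 25.6 in Control in the Tm4sf1 Rhox5 cluster. The part of neutrophil RNA in the F3 levels there was not tested.

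F3 in fibroblasts stood at 138 in Arg and 95.8 in Control. It was low in lymphocytes, at 1.01 and 0.537 in T cells and 1.34 and 1.07 in NK cells. Within macrophages, the F3 level was 30.2 and 12.6 in cluster 0 (led by Rsad2, Cmpk2, Ifit2, Ifit3 and Ifit1) and 27.4 and 16.7 in cluster 1 (led by Ly6i, Gm15056, Slc4a11, H2-DMb1 and Ass1). It was 2.41 and 3.82 in cluster 3, led by Ednrb, Lyve1, Gas6, Retnla and Cd163, where the counting interval of the ratio spanned 1.

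Factor VII and factor X, the liver-type proteases of the cascade, had transcripts in the myeloid classes. In Arg the F10 levels ran from 232 in cluster 7 over 151 in monocytes, 82.0 in macrophages and 74.2 in cluster 5 to 45.0 in neutrophils. In Control they ran from 309.6 in cluster 7 over 199 in monocytes, 98.5 in neutrophils and 20.6 in cluster 5 to 14.0 in macrophages. Counting intervals of neighbours in either order did not overlap. Macrophages and cluster 5 stood nearer to monocytes in Arg than in Control.

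In macrophages the F10 ratio was 5.86 [5.45 to 6.32] and in cluster 5 it was 3.60 [3.07 to 4.24]. In monocytes it was 0.759 [0.700 to 0.824] and in cluster 7 it was 0.749 [0.700 to 0.803], both short of the threshold and pointing the other way. In neutrophils it was 0.457 [0.285 to 0.707], which counted as lower. That ratio rests on 25 Arg and 123 Control UMIs, and 21 of the Control UMIs came from 1 cell. The shares of cells with an F10 UMI at a fixed depth of 2000 UMIs followed the levels. They were 13.2% in Arg and 3.14% in Control in macrophages (32.8% and 8.83% unthinned), and 22.4% and 29.0% in monocytes (42.5% and 55.9% unthinned). In NK cells, which should lack the gene, the shares were 0.285% in Arg and 0 of 744 cells in Control (exact upper limit 0.495%), and the levels were 1.43 and 0.458 CPM. B lineage cells numbered only 62 and 37 and had 17.0 [7.76 to 32.2] in Arg and no F10 UMI in Control.

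Different clusters filled the macrophage class in Arg and in Control. Cluster 1 held 55.6% of it in Arg and 16.4% in Control, while cluster 2, led by C1qc, C1qb, C1qa, Ch25h and Cd72, held 16.8% in Arg and 40.3% in Control. Within each of the 5 macrophage clusters the F10 level in Arg was above that in Control: 124 against 65.2 in cluster 1, 95.4 against 34.1 in cluster 0, 16.2 against 2.31 in cluster 2, 16.5 against 6.62 in cycling cluster 18 and 12.1 against 9.64 in cluster 3. In cluster 3 the interval of the ratio, 0.847 to 1.82, spanned 1. With both libraries weighted to the same mix of these clusters, F10 in macrophages was at 61.1 in Arg and 29.3 in Control, a log2 ratio of 0.94 in place of 2.2.

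**Figure D3:**
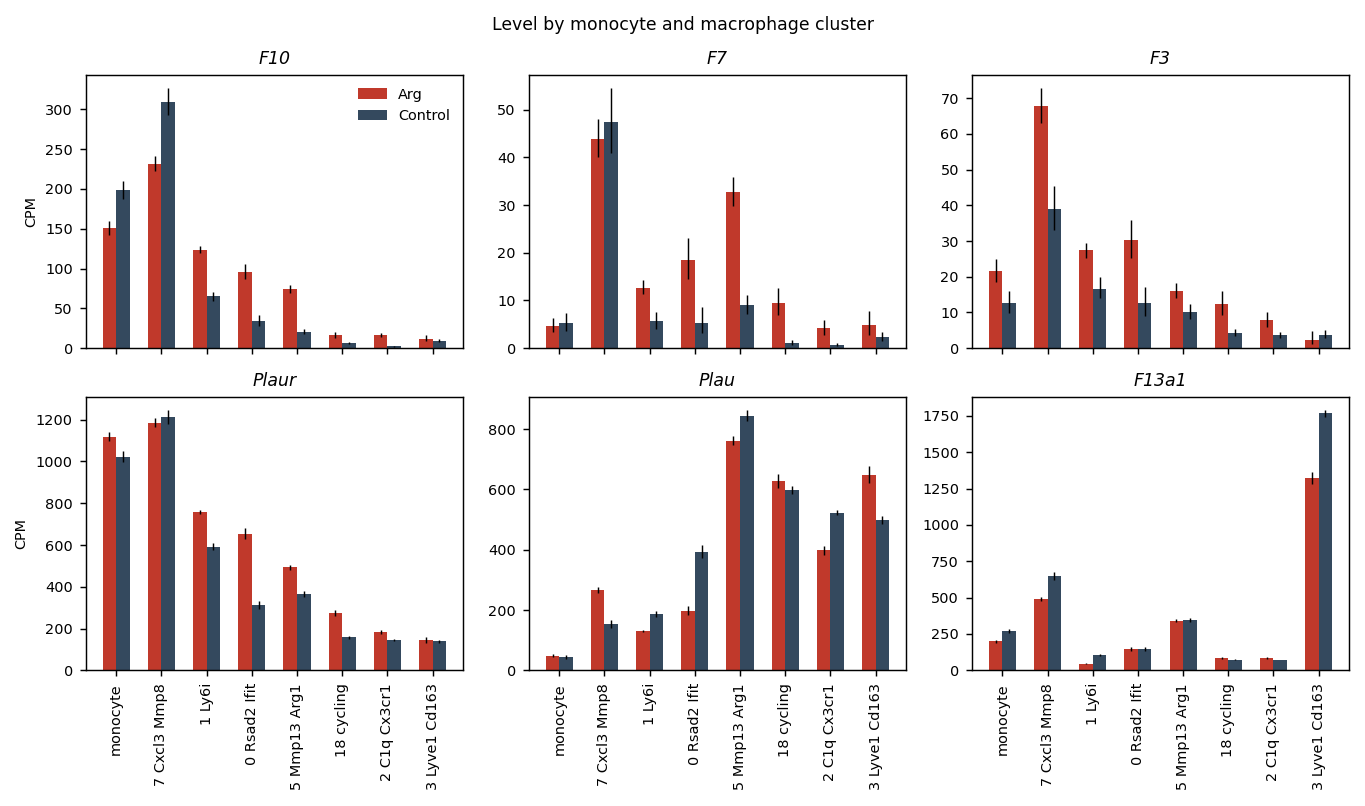
Levels of F10, F7, F3, Plaur, Plau and F13a1 in the monocyte cluster and 7 macrophage-marker clusters, in CPM, with Arg left of Control and black bars for the 95% counting interval. F10 and F7 peak in cluster 7 in both libraries, F13a1 in cluster 3 and Plau in cluster 5.

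Monocyte markers moved with these macrophage values. Over the 10 monocyte markers the macrophage class summed to 2713 CPM in Arg and 1573 in Control, with 6 of 10 markers over 10 CPM and none at 0 in both libraries. Over the 8 macrophage markers it summed to 8186 and 14084, with all 8 over 10 CPM. The part of monocyte-like cells in the macrophage ratios beyond the mix of clusters was not tested. With clusters 5 and 7 counted as macrophages and a common mix, the log2 ratio of F10 was 0.36 and no longer past the threshold.

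F7 was measured in clusters 5 and 7 among the classes compared, at lower counts than F10. Cluster 7 had 43.9 CPM in Arg and 47.4 in Control (ratio 0.927 [0.781 to 1.10]), whose intervals overlapped. Cluster 5 had 32.8 in Arg and 8.99 in Control, a 3.65-fold ratio [2.87 to 4.69]. Of the 79 F7 UMIs in Control cells of cluster 5, 19 came from 1 cell. In macrophages F7 stood at 10.8 and 1.89, whose mean was under the limit of 10, and in monocytes at 4.65 and 5.20.

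Across 16 classes in 2 libraries, F7 and F10 had the highest correlation of any pair among the 8 genes (Pearson r = 0.84 over 32 points, which share libraries and depth). F13a1, on another chromosome, was nearly as close to F10 (0.83) and to F7 (0.82). In single cells of cluster 7 the neighbours F7 and F10 did not visibly travel together. After thinning, F7 was found in 7.42% of cells with an F10 UMI and in 7.18% of cells without one in Arg, and in 10.4% and 8.36% in Control, with overlapping intervals in either library. In monocytes the shares differed more, at 3.21% [1.40 to 6.23] with and 0.812% [0.327 to 1.67] without F10 in Arg. In Control monocytes they were 0.976% and 0.398%. The intervals overlapped in either library, and F7 was found in only 15 Arg and 4 Control monocytes after thinning.

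F13a1, which encodes the subunit of factor XIII that forms cross-links, had its highest level in cluster 3. That cluster had 1320 CPM in Arg and 1767 in Control (ratio 0.747 [0.723 to 0.772]) and held 22.4% of all F13a1 UMIs of the Arg cells and 60.6% of those of the Control cells. Cluster 7 held 26.7% in Arg and 8.06% in Control, and cluster 5 held 25.3% and 9.49%, so that in Arg the UMIs were spread over 3 clusters. Cluster 7 had 490.4 and 648, cluster 5 had 342 and 346, and monocytes had 199.6 and 273. None of these ratios reached 1.5-fold.

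Over the whole macrophage class F13a1 was at 162 in Arg and 373 in Control, a ratio of 0.435 [0.424 to 0.447] and a lower call. Cluster 3, where the level was highest, made up 10.4% of the class in Arg and 20.7% in Control. With the common mix of clusters the levels were 268 and 353 and the log2 ratio -0.39 in place of -1.18, short of the threshold. Cells with 20 or more F13a1 UMIs held 32.3% of the macrophage UMIs in Arg (65 cells) and 63.5% in Control (348 cells). The direction of the macrophage call also depended on the clustering, and at a Leiden resolution of 2 the log2 ratio was 0.063.

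Plau, which encodes urokinase, was highest in cluster 5, with 762 in Arg and 845 in Control. In the macrophage class it was at 277 and 491, a ratio of 0.564 [0.552 to 0.576] that counted as lower. Cells with a Plau UMI at 2000 UMIs made up 26.1% and 44.3% of macrophages (56.4% and 76.4% unthinned). Its clusters did not move alike: Plau was at 198 and 394 in cluster 0, 130.2 and 186 in cluster 1, 398 and 523 in cluster 2, 628 and 598 in cluster 18 and 648 and 499 in cluster 3.

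With the common mix of macrophage clusters, Plau was at 349 in Arg and 395 in Control, a log2 ratio of -0.18 and no call. Cluster 7 went the other way, with 268 in Arg and 153 in Control, a 1.75-fold ratio [1.60 to 1.91]. Only 4 other clusterings held a matched cluster, and in all 4 the call was lost, with log2 ratios of 0.20 to 0.45. At resolution 0.5, with the stricter cell filter and with no cell filter, no cluster with cells of both libraries matched cluster 7. The monocyte markers of cluster 7 summed to 1718 in Arg and 2930 in Control and its macrophage markers to 3663 and 2264. The cells gathered in it were thus not alike in the libraries. Their part in the Plau ratio was not tested.

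Mast cells held 209 and 198 CPM of Plau, with overlapping intervals, and monocytes 47.8 and 43.9. Fibroblasts had 91.3 in Arg and 177 in Control. Macrophage markers summed to 645 CPM in Arg and 1795 in Control in that class, with all 8 over 10 CPM, and their part in the Plau levels was not tested. The values in T cells (12.9 and 15.5) and in the Tm4sf1 Rhox5 cluster (12.5 and 11.7) were at the level of NK cells (14.3 and 14.9). At 2000 UMIs the share of Tm4sf1 Rhox5 cells with a Plau UMI was 2.47% in Arg and 2.42% in Control, against 2.92% and 3.49% of NK cells, and is read as background.

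Plaur, the urokinase receptor, was found in most myeloid cells. Neutrophils had 3869 in Arg and 3072 in Control, cluster 7 had 1186 and 1213, and monocytes 1119 and 1023. These levels differed by less than 1.5-fold between the libraries. In macrophages Plaur stood at 549 and 211, a 2.60-fold ratio [2.54 to 2.65], and was found at 2000 UMIs in 54.8% and 28.6% of cells (81.0% and 65.5% unthinned).

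The Plaur ratio within macrophage clusters was largest in cluster 0, with 654 in Arg and 312 in Control. Cycling cluster 18 followed, with 273 and 158, a 1.73-fold ratio [1.61 to 1.85]. The ratio was smaller in cluster 1, with 759 and 593, and in cluster 2, with 184 and 147, and in cluster 3 the values of 144 and 140.1 had overlapping intervals. With the common mix the macrophage levels were 435 and 322 and the log2 ratio was 0.43, short of the threshold. In the Tm4sf1 Rhox5 cluster Plaur was higher, at 383 in Arg and 215 in Control, a 1.79-fold ratio [1.73 to 1.84].

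In that cluster 42.9% of Arg and 26.5% of Control cells had a Plaur UMI at 2000 UMIs (92.6% and 81.0% unthinned), well above the 7.05% and 6.18% of NK cells. Macrophage markers summed to 243 CPM in Arg and 283 in Control there, with 5 of 8 over 10 CPM and none at 0 in both libraries. Cells with 20 or more Plaur UMIs held 67.5% of its UMIs in Arg (125 cells) and 37.4% in Control (142 cells). In T cells Plaur stood at 26.2 and 17.0, below the NK level of 32.0 and 32.2, with shares of 5.88% and 3.71%. CD4 T cells among them had 44.7 [36.2 to 54.6] and 40.9 [31.2 to 52.8], of which the Arg value lay above the NK interval [28.9 to 35.4], while their shares of 8.58% and 6.56% had intervals that overlapped those of NK cells.

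Serpine2, which encodes protease nexin-1, an inhibitor of thrombin and urokinase, was highest in fibroblasts and T cells and low in the macrophage-marker classes. T cells had 126 CPM in Arg and 24.6 in Control, a 5.14-fold ratio [4.64 to 5.70]. At 2000 UMIs it was found in 12.4% of Arg and 3.26% of Control T cells (23.9% and 9.42% unthinned). CD4 T cells had 0.932 and 0.694, and NK cells as a whole had 15.5 and 14.2, with overlapping intervals. The NK clusters did not move alike: L1 had 13.1 in Arg and 3.68 in Control (ratio 3.55 [1.88 to 7.28]) and L2 26.8 and 9.08 (2.96 [1.42 to 7.10]), while L0 had 4.94 and 15.4 (0.322 [0.163 to 0.628]) and L8 28.8 and 51.8 (0.556 [0.356 to 0.864]). In T cells no cell held more than 45 of the 1873 Serpine2 UMIs in Arg, or more than 27 of the 458 in Control.

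Most Serpine2 UMIs of T cells lay in clusters that held all 6 CD8 T markers in at least 20% of their cells. Since the leading genes of cluster L10 include the gamma-delta T genes Tcrg-C2 and Trgv2, these clusters are given by number and not as a class. Cluster L7, led by Atp2b2, Gpm6b, Serpine2, Exph5 and Ptprk, had 234 in Arg and 84.3 in Control, a 2.78-fold ratio [2.38 to 3.27]. The level was likewise higher in cycling cluster L4, which had 210.1 and 29.8 (7.05-fold [5.87 to 8.51]), and cluster L10, led by Gm156, Tcrg-C2, Trgv2, Pdcd1 and Gldc, had 95.7 and 15.4. Regulatory T cells, defined by Foxp3, had 34.1 and 5.09, with 7 UMIs behind the Control value. The UMIs came from 4.53% of Arg and 3.61% of Control regulatory T cells, and at 2000 UMIs the shares were 2.47% and 1.27%, whose intervals overlapped.

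**Figure D4:**
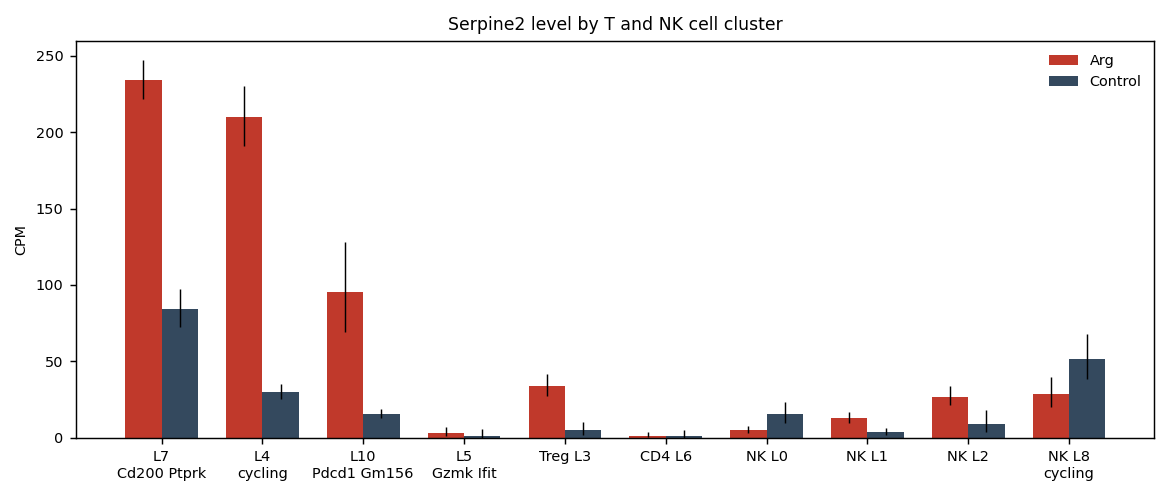
Serpine2 level in T and NK cell clusters, in CPM, with Arg left of Control and black bars for the 95% counting interval. The bars of clusters L7, L4 and L10 are higher in Arg, at 234, 210.1 and 95.7, against 84.3, 29.8 and 15.4 in Control.

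The makeup of the T cells differed between the libraries. Cluster L7 made up 33.2% of them in Arg and 11.6% in Control, and cluster L10 made up 3.24% in Arg and 44.2% in Control. With both libraries weighted to the same mix of clusters, Serpine2 in T cells was at 103 in Arg and 26.7 in Control, a 3.87-fold ratio. Fibroblasts were the other class with much Serpine2, and their 8 markers summed to 6.47 in Arg and 20.2 in Control in T cells, with none of the 8 over 10 CPM. The part of fibroblast RNA in the T cell levels was not tested.

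Serpine2 and Cd200, which encodes a surface glycoprotein, were both among the leading genes of cluster L7. Their shared detection over all T cells cannot be told apart from cluster membership, since the pair was not compared within a cluster. In Arg, 25.1% of T cells with a Cd200 UMI at 2000 UMIs [20.0 to 30.7] also had a Serpine2 UMI, against 10.0% of those without one [8.49 to 11.7]. In Control the shares were 6.94% [4.09 to 10.9] and 2.76% [2.05 to 3.63]. Within each library the intervals of the pair did not overlap. Cells with Cd200 were the deeper ones before thinning, with medians of 9303 and 6543.5 UMIs in Arg and 8296 and 7613.5 in Control.

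Outside lymphocytes, Serpine2 was at 221 in Arg and 155 in Control in fibroblasts, where 2 Arg cells held 49.5% of its UMIs. It was at 6.57 and 2.51 in cluster 7 and at 0.750 and 0.582 in macrophages. Of 462 Arg cells in the Tm4sf1 Rhox5 cluster none had a Serpine2 UMI, which allows a level of up to 0.208, and the Control level there was 0.269. Neutrophils had no Serpine2 UMI, which allows levels of up to 6.65 in Arg and 2.96 in Control.

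Serpinb2, which encodes plasminogen activator inhibitor 2, was found in few cells that held many copies. In cluster 7 its level was 47.3 CPM in Arg and 222 in Control, a ratio of 0.213 [0.191 to 0.238] that counted as lower. The 504 Arg UMIs came from 80 cells and the 885 Control UMIs from 75 cells. Of the Control UMIs, 64.4% came from 14 cells with 20 or more each, and of the Arg UMIs 20.2% came from 3 such cells. At 2000 UMIs, 4.40% of Arg cells [3.30 to 5.75] and 9.66% of Control cells [7.16 to 12.7] had a Serpinb2 UMI (6.81% and 15.4% unthinned), a smaller difference than that of the levels. Monocyte markers summed to 1718 CPM in Arg and 2930 in Control in this cluster, and macrophage markers to 3663 and 2264. The part of this difference between the cells in the Serpinb2 ratio was not tested.

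Fibroblasts showed the same unevenness for Serpinb2. Their level was 306 in Arg and 506 in Control, but 1 Arg cell held 137 of the 151 UMIs, and 9 Control cells held 95.1% of 877 UMIs. Monocytes had 16.4 and 14.6, with overlapping intervals, and macrophages 1.71 and 4.12. In T and NK cells all levels were below 1 CPM.

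Other genes of the 2 systems were described from lists of coagulation factors and their processing (19 genes), anticoagulants (11), plasminogen system genes (14) and thrombin and protease receptors (9). In macrophages, where 4, 4, 7 and 1 of these were measured, 0, 1, 2 and 0 were higher in Arg and 1, 2, 1 and 0 were lower. Of all genes measured there, 7.22% were higher and 4.75% lower. Median log2 ratios were -0.13, -0.15, 0.49 and -0.39, against 0.01 over all measured genes. The largest positive ratios were those of Procr, the endothelial protein C receptor (19.1 in Arg and 5.30 in Control, log2 1.22), and Thbs1, which encodes thrombospondin 1 (189 and 104, log2 0.83). The largest negative ones were those of Serpinb6a, an intracellular serpin (69.7 and 181, log2 -1.31), and Gas6, a vitamin K-dependent ligand (70.3 and 147, log2 -1.01). Gas6 was a leading gene of cluster 3, which made up 10.4% of the macrophage class in Arg and 20.7% in Control. These list ratios are not given for a common mix of clusters, and the part of the mix in them was not tested.

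In cluster 7, 1 of 5 coagulation genes, 1 of 2 anticoagulants, 3 of 8 plasminogen system genes and 1 of 2 receptors were lower and none was higher. Of all genes measured there, 2.08% were lower and 3.86% higher. The medians were -0.02, -0.68, -0.36 and -0.70 against 0.09 over all genes. Thbs1 was at 591 in Arg and 2270 in Control there (log2 -1.93). It was among the leading genes of the monocyte class, where it was at 1759 in Arg and 2252 in Control. Monocyte markers summed to 1718 CPM in Arg and 2930 in Control in cluster 7, and their part in these ratios was not tested. Lrp1 and Vkorc1 had the largest positive values, 0.29 and 0.19.

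In cluster 5, of 4, 3, 8 and 1 measured genes only plasminogen system genes were called, 1 higher and 2 lower. Of all genes measured there, 4.49% were higher and 1.82% lower. The medians were -0.11, -0.02, -0.14 and -0.38 against 0.08. Plgrkt, a plasminogen receptor, was higher, at 186 in Arg and 115 in Control (log2 0.67), S100a10 had 0.21, and Serpinb6a was lower (log2 -0.78). In monocytes none of 5, 2, 7 and 1 measured genes was called (2.5% of all genes higher, 1.53% lower), with medians of -0.10, -0.01, -0.24 and -0.04 against 0.03. The outermost log2 ratios there were 0.31 for Plgrkt, 0.08 for Pros1, -0.50 for Serpinb6a and -0.36 for Thbs1.

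In T cells 4, 1, 5 and 3 were measured, and of all measured genes 2.83% were higher and 2.27% lower. Itgb3, an integrin subunit of the fibrinogen and vitronectin receptors, was higher (76.4 in Arg and 44.8 in Control, log2 0.71), as was Pros1, which encodes protein S (13.4 and 7.19, log2 0.60), and none was lower. Itgav and Lman1 had the largest negative values, -0.27 and -0.23, and the medians were -0.03, 0.60, 0.01 and 0.08 against -0.00019. In the Tm4sf1 Rhox5 cluster 4, 2, 8 and 2 were measured, with medians of -0.03, 0.12, 0.18 and -0.04 against -0.08. Of all genes measured there, 1.43% were higher and 2.01% lower. Serpinb6a was higher (540 in Arg and 354 in Control, log2 0.60), and Eno1 and Vkorc1 had 0.43 and -0.30.

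Over 32 values (16 cell groups in each of 2 libraries), and among 11509 genes, the genes most like each of the 8 were found by Pearson r of log2 levels. F3 was most like Adamtsl4 (0.94), Carhsp1 (0.91) and Lsmem1 (0.90). F7 was most like Mmp8 (0.92), Arg1 (0.92) and Slc7a2 (0.90), the last 2 of which encode arginase 1 and a cationic amino acid transporter. F10 was most like Tfec (0.92), Gab1 (0.91) and Cebpe (0.90), and those most like F13a1 included C3ar1 (0.97) and Msr1 (0.96).

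Plau was most like Ccl7 (0.91), Ms4a7 (0.91) and Pmp22 (0.90), and Plaur most like Pfkfb4 (0.91), Lamp2 (0.90) and Tiparp (0.90). Serpine2 was most like Grik2 (0.92), Ptprk (0.88) and Bdh2 (0.85), and Serpinb2 most like Cxcl5 (0.91), Sema3c (0.89) and Saa3 (0.87). The correlations describe which cells carry the genes, since most of the spread over these values lies between cell classes that share libraries and depth.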

How the data were processed

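Values were raw UMI counts per gene and barcode, deposited by the authors without normalization for 2 libraries of the 10x Chromium 3′ v3 system. Software version 7.0.1 stands in the file headers, but Cell Ranger 2.2.2 with GRCm38 in the submitters' processing notes, and nothing settles which was used or how intronic reads were treated. The 8 genes, the other gene lists and the marker sets were chosen with earlier results of these data known. The naming thresholds, the Tm4sf1 Rhox5 marker set and the treatment of clusters 5, 7 and L10 were decided once the clusters were known.

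Filters required 200 genes, 500 UMIs and a mitochondrial share of no more than 10%, and Scrublet removed 884 Arg and 687 Control doublets. Cells were clustered with scanpy 1.11.5 (Python 3.11.15) on both libraries together, without batch correction, from 1985 variable genes that left out the 8 genes and the lists, with 30 principal components, 20 neighbours and the Leiden method at resolution 1. A cluster took the name of the marker set with the highest mean log2 level over the median cluster, if this was at least 0.5, 3 of its markers each reached 20% of the cells, and no other lineage led its 10 leading genes. Names mean resemblance to those markers.

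Counts were summed per class and library and scaled to 1000000 UMIs per class total (CPM). Intervals are exact (Poisson for levels, conditional binomial for ratios, Clopper-Pearson for shares) at 95% and cover counting error only. Shares of cells came from cells thinned to 2000 UMIs, with shallower cells left out. All 8 genes are named in the text. Of the lists, the 2 largest and 2 smallest log2 ratios per class are named, except for items that are not reported here. Gene positions came from GENCODE M21, in which 32158 of 32285 features were found. The 1.5-fold rule was checked on simulated sums with counting error only, drawn from the pooled profile of both libraries. That check does not cover differences between libraries, cells or mixes of clusters. The sums were also scaled with edgeR 4.0.16 TMM factors as an alternative.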

Additional observations from a re-analysis of the deposited data

Results flagged for a closer look

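F10 had ratios of opposite direction between cell classes under the same contrast, with log2 values of Arg over Control of 2.2 in macrophages, 1.63 in cluster 5, -0.39 in monocytes and -0.41 in cluster 7. In neutrophils the F10 value was -1.05, a lower call. Plau likewise had log2 ratios of 0.79 in cluster 7, -0.81 in macrophages and -0.15 in cluster 5. With the common mix of macrophage clusters, the macrophage values were 0.94 for F10 and -0.18 for Plau, the latter without a call. With clusters 5 and 7 also counted in that mix, F10 was at 0.36, without a call. The Plau call in cluster 7 was lost in each other clustering with a matched cluster, at 0.20 to 0.45. With 1 library per diet, the differences between these classes were not tested.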

How the results depend on the processing

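Each number here is how many of the 8 genes passed 1.5-fold in a class, with the share of all measured genes that passed in parentheses. The main counts were 1 in monocytes (4.03%), 5 in macrophages (12%), 1 in T cells (5.1%), 2 in the Tm4sf1 Rhox5 cluster (3.44%), 2 in cluster 5 (6.31%) and 3 in cluster 7 (5.94%). With doublets kept the counts were 2 in monocytes (3.54%), 3 in macrophages (8.74%), 4 in T cells (10.6%) and 4 in cluster 5 (5.75%), and cluster 7 had 0 higher and 2 lower (5.29%), against 2 higher and 1 lower. At Leiden resolution 0.5 they were 2 in monocytes (3.31%) and 1 in macrophages (5.77%), and at resolution 2 they were 3 in monocytes (3.87%), 2 in T cells (6.98%) and 4 in cluster 5 (5.27%). The stricter cell filter gave 3 in monocytes (3.7%) and 5 in cluster 5 (7.07%), and no cell filter gave 3 in monocytes (3.56%) and 2 in T cells (7.76%). Centring genes within libraries gave 4 in cluster 5 (8.31%), clustering with the 8 genes included gave 2 in T cells (5.31%), and per-cell marker gates gave 2 in monocytes (2.52%) and 2 in T cells (5.88%). TMM factors gave 0 in monocytes (3.98%), and a pseudocount of 1 CPM gave 2 in T cells (7.05%). A minimum of 50 CPM gave 0 in monocytes (4.73%), 3 in macrophages (14.8%), 1 in the Tm4sf1 Rhox5 cluster (4.05%) and 0 in cluster 5 (7.58%), because fewer genes were then measured. The common mix of clusters gave 2 in macrophages (4.27%), F3 and F10. The count was also 2 when clusters 5 and 7 were counted as macrophages in the mix (3.7%), an alternative chosen after seeing the data. F10 was then not among them, so the genes were not the same. Apart from the last filter and the mix, the cause was not tested.

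Of 154 called log2 ratios recomputed under the alternatives, 125 kept their call, 28 lost it with the same sign, and that of F13a1 in macrophages was 0.063 at resolution 2, the opposite sign. F13a1 and Plau in macrophages lost their calls under most other clusterings. No call could be made for fibroblasts, which stayed under 50 Arg cells in every setting, or for a tumour epithelial class, which no cluster formed, and the Tm4sf1 Rhox5 cluster was added after seeing the data. No paired analysis was possible because each diet had 1 library. The common mix could not be applied to classes of 1 cluster. Depth limits F7, Serpinb2 and Serpine2 outside their main classes, where few UMIs were counted.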
